A study of Homo sapiens with 9 samples.

Results

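The open chromatin of vehicle-treated 22Rv1 cells was described from the regions that all 3 DMSO libraries shared. Peaks of those libraries on chromosomes 1 to 22 and X were merged wherever their intervals had at least 1 bp in common, which gave 107420 merged regions. A merged region counted as held by a library that had at least 1 peak in it, and 70295 regions (65.4%) were held by all 3 libraries. These are called held regions, and they covered 41.2 Mb. Another 15088 regions were held by 2 libraries and 22037 by 1 library.

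22Rv1 is a human prostate carcinoma line of epithelial origin. The cells of every group in the series carried an edited SF3B1 with the C1111S change, and the cells described here received DMSO at 0.1% for 3 h, the vehicle of the covalent small molecules that the series tests for their effect on the pioneer factor FOXA1. No unedited cells and no treated library entered any value. The labels do not state whether the edited line is 1 clone or whether replicates 1, 2 and 3 were separate cultures, so the spread between libraries given here may be technical. Coordinates are hg19. No reference of that build was used, so regions are given by position without gene names, and whether the marker genes of the labelled cell type were open was not analysed here.

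In ATAC-seq a transposase cuts and tags DNA where nucleosomes and other proteins leave it exposed, so fragments pile up at active promoters, enhancers and insulators. SF3B1 is a core subunit of the splicing machinery, and FOXA1 opens closed chromatin in prostate epithelium so that other factors, among them the androgen receptor, can bind. Promoters shared by most cell types tend to be broad and strongly open, whereas distal elements are usually narrower and differ more between cell types. MACS2, the peak caller used, reports at each peak's summit how far the stacked fragments exceed a background, as a ratio (fold enrichment) and as the −log10 of a Poisson p-value. That background is taken from the library's average and from windows around the summit, whichever is highest.

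The 3 lists held 81962, 90196 and 101038 peaks in replicates 1, 2 and 3 (mean 91065 ± 9568, SD, n = 3). The number of reads behind each list was not analysed here. Fold and −log10 p together fix 2 other quantities under the caller's Poisson formula, the number of fragments stacked at the summit (the summit pileup) and the local background in the same units. In each list 100% of peaks had a whole number of fragments that returned the authors' deposited −log10 p to within 0.002. The most frequent background of each list, taken as its floor, was 1.14, 1.09 and 1.23 fragments in replicates 1, 2 and 3. That floor stands for the genome-wide average. The longest list thus came with the highest genome-wide background, and the order of the other lists differed from that of their backgrounds. The median pileup over all peaks was 24 fragments in each list, and no peak had fewer than 7.

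Held regions were the stronger part of the merged set. Their median fold enrichment was 8.37, against 5.51 in regions held by 2 libraries and 4.93 in those held by 1. The median −log10 p was 21.2, 9.14 and 8.04 in the same order, and the median summit pileup 29.3, 13 and 12 fragments. Being held is itself a call on strength, so this ordering is partly fixed by the definition. When all merged regions were ranked by their highest −log10 p and divided into 10 equal groups, group 1, the weakest, contained 1.39% held regions and group 5, with −log10 p from 13.2 to 16.4, contained 76.1%. In group 7, with −log10 p from 20.8 to 27.5, 99.4% were held, and in each of the strongest 2 groups 100%. Calls that came and went between libraries thus lay almost wholly below a −log10 p of 27.5.

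Few regions were private to the shortest list. Held regions took in 91.1% of the peaks of replicate 1, 81.6% of those of replicate 2 and 71.9% of those of replicate 3. Replicate 3 alone held 14457 regions, 65.6% of all those held by 1 library, and replicate 1 alone held 2247. Of the regions held by 2 libraries, 10041 (66.5%) were missing from replicate 1, whereas 1200 (7.95%) were missing from replicate 3. A missing peak means only that no call passed the authors' threshold there. The strongest of the regions missing from replicate 1 had a mean fold of 11.3 in the other libraries, above the median of held regions. With each list shortened to the 81962 strongest peaks by −log10 p, 65561 regions were held, which was 69.5% of those merged.

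**Figure D1:**
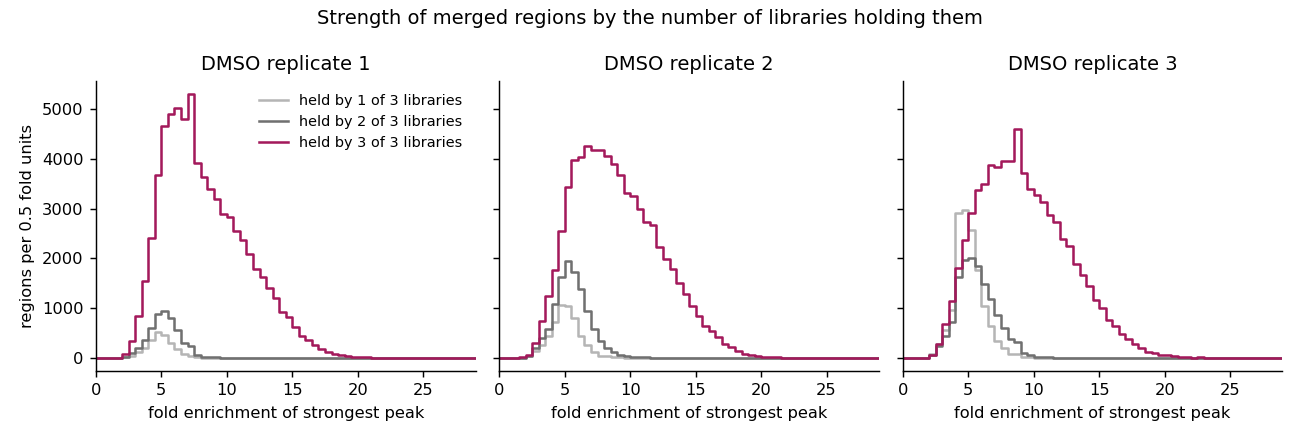
Histograms of the fold enrichment of the strongest peak in each merged region (horizontal axis, ratio; vertical axis, regions per 0.5 fold units), with 1 panel for each DMSO library and 1 line each for regions held by 1, 2 or 3 libraries. Regions held by 1 or 2 libraries are concentrated near a fold of 5 in all 3 panels, and they are fewest in replicate 1 and most numerous in replicate 3, the lists of 81962 and 101038 peaks. Held regions spread from a fold of about 2 to 28.

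Within the held regions fold enrichment varied over a wide but mostly moderate range. The mean fold over the 3 libraries ran from 1.95 to 27.2, with the middle 50% of regions between 6.45 and 10.9. A mean fold under 5 was found in 8.43% of held regions, 58.5% lay between 5 and 10, 33.0% reached at least 10, and 3.93% at least 15. Only 25 regions reached a mean fold of 20. The median fold of held regions was 7.75 in replicate 1, 8.57 in replicate 2 and 8.94 in replicate 3 (mean 8.42 ± 0.61, SD, n = 3), so the libraries differed little beside the spread between regions. The −log10 p stretched further, from 5.71 to 139 with a median of 21.2. It grows with the number of fragments as well as with their ratio to the background.

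The strongest regions by −log10 p were tall and wide peaks over a raised background. They were ranked by the worst of their 3 ranks, so that a region had to be strong in every library. The first lay on chromosome 14 from 73493474 to 73494241, with a −log10 p of 127, 140 and 150 in replicates 1, 2 and 3. Its fold was 18.7, 19.9 and 19.5, and 135, 145 and 158 fragments were stacked at its summit. All 3 libraries placed it among their 3 strongest. The second lay on chromosome 7 from 102388856 to 102389967, where fold was 16.7, 16.5 and 16.7 and the summit pileup 143, 155 and 166 fragments. The third, on chromosome 16 from 72042280 to 72043122, had folds of 17.7, 18.2 and 18.2. For both of these regions the 3 folds lay closer together than the pileups, which were lowest in replicate 1 and highest in replicate 3 as the −log10 p was.

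Chromosome 1 had 9.99% of all held regions. Of its regions 11.7% were among the strongest 10% by −log10 p, against 17.6% on chromosome 19. It supplied 5 of the 10 strongest regions by −log10 p. They spanned 244211119 to 244211993 (mean fold 16.2 ± 0.5, SD, n = 3), 153699913 to 153700669 (16.2 ± 0.3), 150669440 to 150670293 (16.7 ± 0.6), 230321629 to 230322505 (19.4 ± 0.9) and 244815865 to 244816939 (14.0 ± 0.6). The remaining members were on chromosome 12 from 133380944 to 133381643 (16.2 ± 0.3) and on chromosome 19 from 19886752 to 19887921, where the 3 folds were 15.3, 14.8 and 14.9. Widths of the 10 regions ran from 700 to 1170 bp with a median of 864.5 bp, well above the median of all held regions. Their mean summit pileups lay between 135 and 164 fragments over local backgrounds of 6.01 to 10.8 fragments, several times the genome-wide floor. Without replicate 1, 6 of these 10 regions stayed among the first 10, the lowest number for any library left out.

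Ranking by fold enrichment picked out different places. None of the 10 strongest regions by fold was among the 10 strongest by −log10 p, and of the first 1000 on each ranking 19.5% were shared. The top region by fold lay on chromosome X from 136520320 to 136520687, a peak of 368 bp with folds of 26.6, 28.0 and 27.1 in replicates 1, 2 and 3. Its summit held 71, 82 and 83 fragments over a background of 1.71, 1.96 and 2.10. Next came chromosome 14 from 88237486 to 88237914, with folds of 23.8, 25.5 and 26.0 and the nearest other held region 127.6 kb away. Both stood above the other 8 regions of this ranking, among which the highest fold in any library was 23.3.

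The other regions that led by fold were likewise narrower than the leaders by −log10 p and lay over lower backgrounds. They lay on chromosome 21 from 31781012 to 31781599 (mean fold 22.5 ± 0.7, SD, n = 3) and from 16930276 to 16930827 (20.8 ± 0.6), on chromosome 7 from 74508655 to 74509228 (21.9 ± 1.3), on chromosome 16 from 32199364 to 32199707 (22.0 ± 1.7), on chromosome 9 from 32136582 to 32137261 (20.9 ± 0.3), on chromosome 3 from 159995984 to 159996441 (21.2 ± 1.3), on chromosome 4 from 87587723 to 87588210 (20.5 ± 0.7) and on chromosome 2 from 225835879 to 225836367 (20.5 ± 0.5). Widths of the 10 ran from 344 to 680 bp, with a median of 488.5 bp against 495 bp in all held regions. The median background of the 10 was 2.63 fragments, against 2.4 in all held regions. Their backgrounds lay between 1.23 and 3.68 fragments, below every background of the 10 strongest by −log10 p, and their pileups between 48 and 104 fragments, below every pileup there. The 10 regions sat on 9 chromosomes. None had another held region within 5 kb, whereas 33.2% of all held regions did. The region on chromosome 16 reached its mean fold of 22.0 with 42, 51 and 51 fragments over a background of 1.14, 1.23 and 1.30, close to the floor of each list.

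The 2 measures were related but far from interchangeable across held regions. Spearman's rho between mean fold and mean −log10 p was 0.80 over the 70295 regions, given as a description, since both usually come from the same summit. It was 0.90 between −log10 p and summit pileup and 0.52 between fold and pileup. Ranking by summit pileup, added after the values were seen, shared 1 of its 10 leading regions with the ranking by −log10 p. The tallest summit lay on chromosome 4 from 52734 to 54368, with 173, 172 and 188 fragments and folds of 10.6, 10.4 and 10.8 over backgrounds of 15.3, 15.7 and 16.5. A region of the highest pileup could therefore have a fold only moderately above the median.

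Held regions were short, with a long tail towards broad ones. Width ran from 155 to 2498 bp with a median of 495 bp, and the middle 50% lay between 342 and 740 bp. Regions under 500 bp made up 50.6%, regions of 500 to 1000 bp 37.7%, and regions of at least 1000 bp 11.7% while supplying 24.9% of the bases covered. Merged regions held by 2 libraries had a median width of 262 bp and those held by 1 library 180 bp. Merging widens a region with each library added, since the median width of single peaks was 324, 331 and 331 bp in replicates 1, 2 and 3. The bases common to all 3 libraries made up a median of 73.8% of a held region, or 326 bp, and 30.3 Mb in all. In 153 held regions no base was common to all 3, because intervals were joined through one another.

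Fold rose with width up to about 1 kb, whereas −log10 p and summit pileup rose through the widest regions. Strength and width are partly tied by the definition, since a region takes the strongest of the peaks joined into it. In 10 equal groups of held regions by width, median fold climbed from 5.67 in the narrowest (median width 260 bp) to 11.2 in group 9 (median 918 bp) and was 10.3 in the widest (median 1229 bp). Summit pileup kept rising through the widest group, from a median of 16 fragments in the narrowest to 65.7 in group 9 and 85.3 in the widest. The median −log10 p did too, at 10.8, 48.8 and 58.8 in the same groups. The local background also rose, from 1.67 to 4.78 and 7.14 fragments in these 3 groups. The drop of fold in the widest group was present in each library, from 10.9 to 10.3 in replicate 1, from 11.3 to 10.4 in replicate 2 and from 11.4 to 10.3 in replicate 3. In that widest group the 3 libraries had nearly the same median fold, whereas in group 3 they ran from 6.53 to 7.97.

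**Figure D2:**
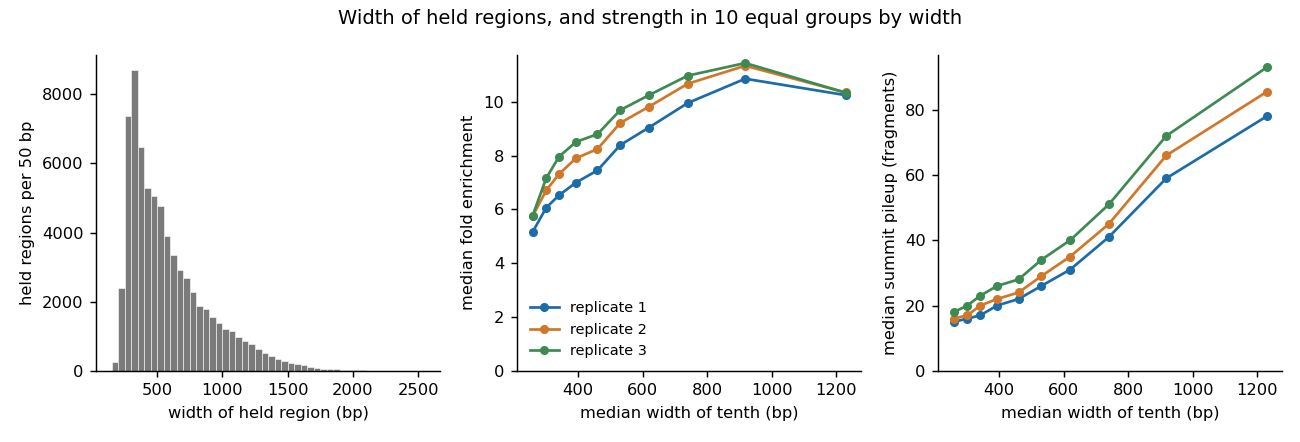
Left, number of held regions per 50 bp of width. Middle and right, median fold enrichment and median summit pileup in 10 equal groups of held regions ordered by width (horizontal axis, median width of each group in bp), with 1 line for each DMSO library. Fold turns down in the widest group, at a median of 10.3, while pileup reaches its highest value there, 85.3 fragments.

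The widest held regions had modest folds over high backgrounds. The widest of all lay on chromosome 12 from 46383528 to 46386025, 2498 bp long, with folds of 6.73, 7.37 and 7.13 and summit pileups of 117, 136 and 144 fragments over backgrounds of 16.5, 17.6 and 19.4. It was followed by chromosome 3 from 32279611 to 32282049 (mean fold 8.76 ± 0.37, SD, n = 3), chromosome 4 from 83350031 to 83352458 (7.19 ± 0.44) and chromosome 5 from 176829303 to 176831701 (6.24 ± 0.15). A region on chromosome 12 from 7070408 to 7072793 had the lowest fold of the 10 widest, 4.40, 4.13 and 4.53, although 114, 120 and 144 fragments were stacked at its summit. Across the 10 widest, mean fold lay between 4.36 and 8.76 and the mean pileup between 79.3 and 132 fragments. Such regions were often split differently in the lists: the one on chromosome 17 from 61522881 to 61525197 was called as 5 peaks in replicate 1, 2 in replicate 2 and 1 in replicate 3. Over all held regions 89.9% had exactly 1 peak in every library.

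The 3 libraries placed and ranked the held regions closely alike. The Jaccard index, the bases 2 lists share divided by the bases either covers, was 0.726 for replicates 1 and 2, 0.698 for 1 and 3, and 0.735 for 2 and 3. Across the 70295 held regions Pearson's r of log2 fold was 0.89, 0.88 and 0.90 for these pairs, and Spearman's rho of fold was 0.88, 0.88 and 0.89. For −log10 p rho was 0.91, 0.92 and 0.92, and for summit pileup 0.95 in each of the first 2 pairs and 0.96 in the last. The points of each pair share position, width and base composition, so these are descriptions of agreement across regions. Folds of a region lay within a factor of 1.5 of each other in 95.03%, 93.09% and 96.79% of regions, and within a factor of 2 in at least 99.6%.

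Agreement was tightest for the strongest regions and loosest in the weaker middle of the range. The standard deviation of log2 fold over the 3 libraries had a median of 0.14 in all held regions. In 10 equal groups by mean fold its median was 0.13 in the weakest, 0.19 in group 3 (folds of 6.06 to 6.81) and 0.09 in the strongest. In 10 groups by −log10 p it was 0.17 in the weakest, 0.21 in groups 2 and 3 and 0.06 in the strongest. The low value in the weakest group by fold came with a median summit pileup of 29.3 fragments, against 16 in group 3. By −log10 p, however, the weakest group had the lowest pileup, 12.7 fragments against 14.7 in group 2. A weak region enters these groups only if all 3 libraries called it, which limits the spread of its folds. A standard deviation above 0.5 was found in 613 regions, or 0.87%. Fold was also shifted as a whole, since 72.0% of held regions had a higher fold in replicate 3 than in replicate 1, with a median ratio of 1.09.

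**Figure D3:**
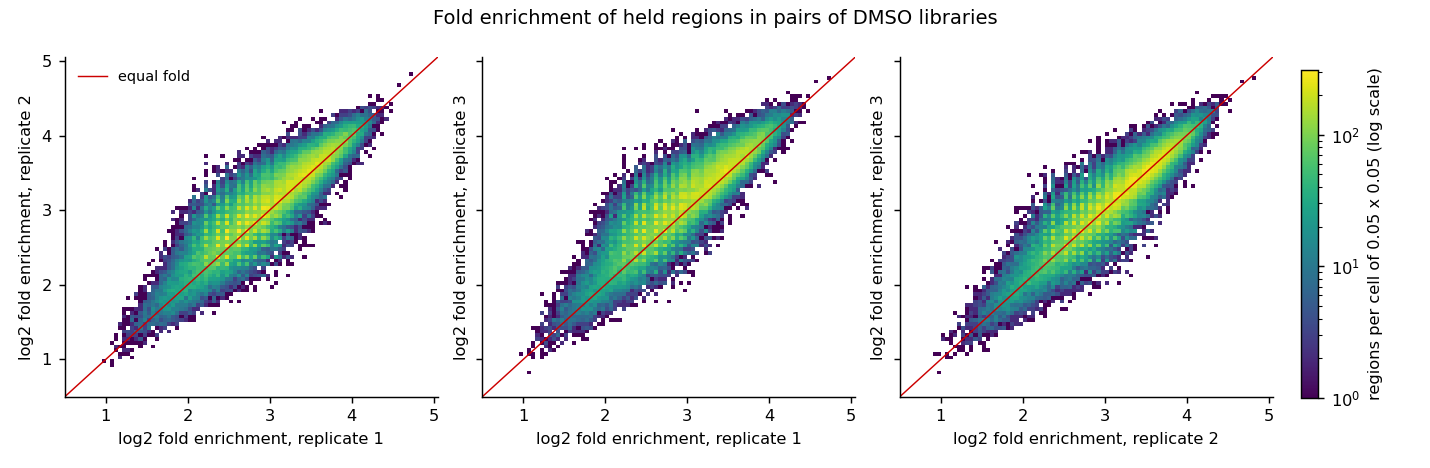
Fold enrichment of the 70295 held regions on a log2 scale in each pair of DMSO libraries. Colour gives the number of regions per cell of 0.05 by 0.05 on a log scale, and the red line marks equal fold. The cloud narrows towards high folds and lies slightly above the line for replicates 1 and 3, where 72.0% of regions had the higher fold in replicate 3. For summits at the background floor fold can take only the steps of whole fragments, and a lattice is visible at low folds.

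Summits of a held region lay close together. This is partly fixed by the definition, since the region is built from overlapping peaks. The distance between the outermost of the 3 summits of a held region had a median of 52 bp. It was at most 50 bp in 48.5% of regions, at most 100 bp in 80.6%, and over 200 bp in 6.53%. The median distance was 56 bp in the weakest of the 10 groups by fold and 35 bp in the strongest. In the leading region on chromosome 14 the summits spanned 39 bp, and in the region on chromosome 19 from 19886752 to 19887921 they spanned 3 bp.

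Even among the strongest 10% by −log10 p a few regions differed between libraries. The most variable of them lay on chromosome 12 from 22568399 to 22569288, with folds of 12.38, 12.01 and 17.45 and summit pileups of 63, 60 and 95 fragments in replicates 1, 2 and 3. On chromosome 18 from 3676010 to 3676664 replicate 2 was the low library, with 50 fragments at the summit against 69 and 77 in replicates 1 and 3. On chromosome 1 from 147084093 to 147084607 replicate 1 was low, with a fold of 12.98 against 18.5 and 18.7. The other members of the 5 most variable were chromosome 17 from 33468757 to 33469776 (folds of 12.03, 15.4 and 17.4) and chromosome 8 from 19375721 to 19376395 (12.9, 17.4 and 17.7). Replicate 1 thus had the lowest fold in 3 of the 5 regions, replicate 2 in 2 and replicate 3 in 0. They were chosen for their spread, which is given as a description. At the other end, the region on chromosome 13 from 48611394 to 48612487 had folds of 12.03, 12.03 and 12.02, while its pileup was 91, 102 and 105 fragments.

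Held regions were unevenly spaced. The gap from one to the next on the same chromosome had a median of 19.1 kb, and the middle 50% of gaps lay between 6985 and 46079 bp. Of 70272 gaps, 33.0% were under 10 kb, 7.79% under 1 kb and 9.49% over 100 kb. The very shortest gaps were over-represented: 2552 were under 200 bp, against 911 from 200 to 400 bp and 479 from 1000 to 1200 bp. Merging intervals up to 150 bp apart, which joins the closest of these pairs, left 68249 held regions. At the other extreme, 1613 regions had no other held region within 100 kb.

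Long empty stretches came once on most chromosomes. Gaps over 3 Mb numbered 19, 1 each on 19 chromosomes, and 11 more were over 1 Mb. The longest was on chromosome 1 from 121289480 to 142605503 (21.3 Mb), followed by chromosome 9 from 46844415 to 66457950 (19.6 Mb) and chromosome 16 from 35143642 to 46488636 (11.3 Mb). The other 16 ran from 3.08 to 4.84 Mb. On chromosomes 13, 14, 15 and 22 the longest gap was between 0.63 and 0.80 Mb. The stretch before the first held region of a chromosome is not counted as a gap. Reads in repeats such as those of centromeres are hard to place, and the coverage of these stretches was not analysed here.

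Held regions beside those stretches had slightly higher folds and lower pileups than the rest. Within 1 Mb of a gap over 3 Mb lay 779 held regions. Their median fold was 8.15, 8.94 and 9.39 in replicates 1, 2 and 3, against 7.74, 8.56 and 8.93 in all other held regions, a difference of 0.41 ± 0.04 (SD, n = 3) in the same direction in each library. Their summit pileup differed from that of the others by -1.33 ± 0.58 fragments, their local background was 2.11 ± 0.18 against 2.41 ± 0.20, and their median width was 512 bp against 495 bp.

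Chaining regions at gaps of up to 12500 bp gave 43184 groups, of which 28576 were single regions and 125 held at least 10. The 3 largest groups had 28 regions each. They lay on chromosome 16 from 685590 to 796024, on chromosome 17 from 8013196 to 8130461 and on chromosome 9 from 140009053 to 140150117. The next were chromosome 16 from 3139437 to 3241694 with 24 regions and chromosome 19 from 49559182 to 49668905 with 23. In the group on chromosome 17 the median fold was 4.15, 3.94 and 3.89 in replicates 1, 2 and 3 while the median summit pileup was 73, 75.5 and 77.5 fragments. All 5 of these groups had a median fold below that of all held regions, between 4.04 and 6.25, and a median pileup above it, between 56.2 and 76.5 fragments. Which groups were the largest depended on the chaining distance, as 1 of the 5 stayed among the first 5 at gaps of up to 5 kb and 1 at up to 25 kb. Chromosome 19, with 4.40% of all held regions, had 30 of the 125 groups of at least 10. Chromosomes 3, 13, 18 and 21, with 6.21%, 2.49%, 2.06% and 1.19% of held regions, had 0.

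Across all held regions, those close to a neighbour likewise had lower folds and higher pileups than those farther away. The 23320 regions whose nearest held region was under 5 kb away had a median fold of 6.25, 6.68 and 6.80 in replicates 1, 2 and 3. The other 46975 regions had medians of 8.61, 9.59 and 9.95, a difference of -2.81 ± 0.40 for the crowded regions (SD, n = 3), which were lower in 3 of 3 libraries. Their summits nevertheless held more fragments, with medians of 32, 36 and 41 against 23, 25 and 29, a difference of 10.7 ± 1.5 in the same 3 libraries. The local background solved from the same peaks was 4.28, 4.57 and 5.16 fragments in crowded regions and 1.70, 1.68 and 1.94 in the others. No test was made, since regions of a library are not replicates and both sets come from the same 3 libraries.

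The change in fold fell within a narrow range of distances. The median of the mean fold was between 6.16 and 6.68 in every class up to a distance of 4 kb, 8.13 from 4 to 5 kb, 9.11 from 5 to 6 kb, and between 9.06 and 9.47 in every class beyond. Background, which together with pileup fixes fold, mirrored this course. It went from 4.32 fragments at 3 to 4 kb to 2.33 at 5 to 6 kb and 1.20 at 100 kb or more. Pileup had no such step and declined gradually, from 39.3 fragments under 200 bp to 30 at 5 to 6 kb and 19.7 at 100 kb or more. At 100 kb or more 51.2 ± 3.1% of regions (SD, n = 3) had a background at the floor of their library, against 1.57 ± 0.32% of those under 5 kb.

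**Figure D4:**
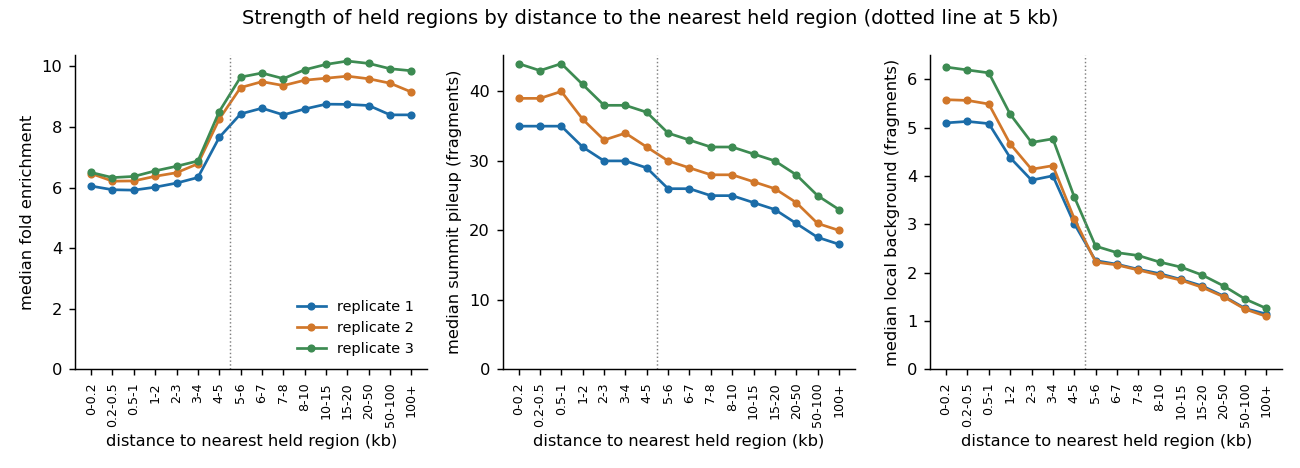
Median fold enrichment, summit pileup and local background of held regions by distance to the nearest held region (horizontal axis, classes in kb), with 1 line for each DMSO library and a dotted line at 5 kb. Fold steps up and background steps down close to 5 kb in each library, while pileup declines without a step, from 39.3 to 19.7 fragments. Fold is fixed by pileup and background, so the steps of fold and background are not separate observations.

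Within groups of similar summit pileup, crowded regions had the lower fold. Fold is fixed by pileup and background, so at a given pileup a lower fold restates the higher background given above. In the middle of 5 equal groups of held regions by pileup (24 to 36 fragments) the median fold was 6.25 for the 5356 regions with a neighbour under 5 kb and 10.59 for the 8703 without. In the group of highest pileup it was 8.41 against 12.6, and in that of lowest pileup 5.68 against 6.56. Since the caller's background includes windows around the summit, fragments of a nearby open region can enter it. The part of this in the lower fold was not tested. The processing notes do not give the widths of those windows. Whether the step of fold and background near 5 kb falls at the edge of one was not tested.

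Per chromosome, held regions were densest on chromosome 19 and sparsest on X. Chromosome 19, known as the most gene-rich, had 52.6 held regions per Mb between its first and last held region, followed by chromosome 22 with 39.8 and chromosome 17 with 38.9. Chromosome X had 11.7, chromosome 4 17.7, chromosome 13 18.2 and chromosome 18 18.6. Counting all peaks of each library, chromosome 19 had 59.5, 63.7 and 68.3 per Mb in replicates 1, 2 and 3 and chromosome X had 13.9, 15.5 and 17.5. The ranges of these 2 chromosomes lay far apart, and the order of the 23 chromosomes by peaks per Mb was almost identical in every pair of libraries (Spearman's rho between 0.995 and 0.997 over 23 chromosomes, as a description). The share of merged regions that were held was also highest on chromosome 19, at 74.5%, and lowest on chromosome 18, at 61.3%.

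Dense chromosomes had tall summits and low folds. Median summit pileup on chromosome 19 was 42, 47 and 52 fragments in replicates 1, 2 and 3, above every other chromosome in each library, yet its median fold was 7.52, 8.22 and 8.41. On chromosome X the pileup was 21, 24 and 28 fragments and the fold 8.38, 9.11 and 9.54. Over the 23 chromosomes, which share libraries and depth, Spearman's rho of regions per Mb was 0.92 with pileup and -0.86 with fold. Among regions without a neighbour under 5 kb the relation to fold was no longer there (rho -0.01) while that to pileup stayed at 0.91. In those regions chromosome 19 had the highest fold of all chromosomes, 10.05 ± 0.63 (SD, n = 3), with 41.3 ± 4.5 fragments. Chromosome X came next with a fold of 9.80 ± 0.83, and in replicate 3 it nearly equalled chromosome 19 (10.46 against 10.47).

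**Figure D5:**
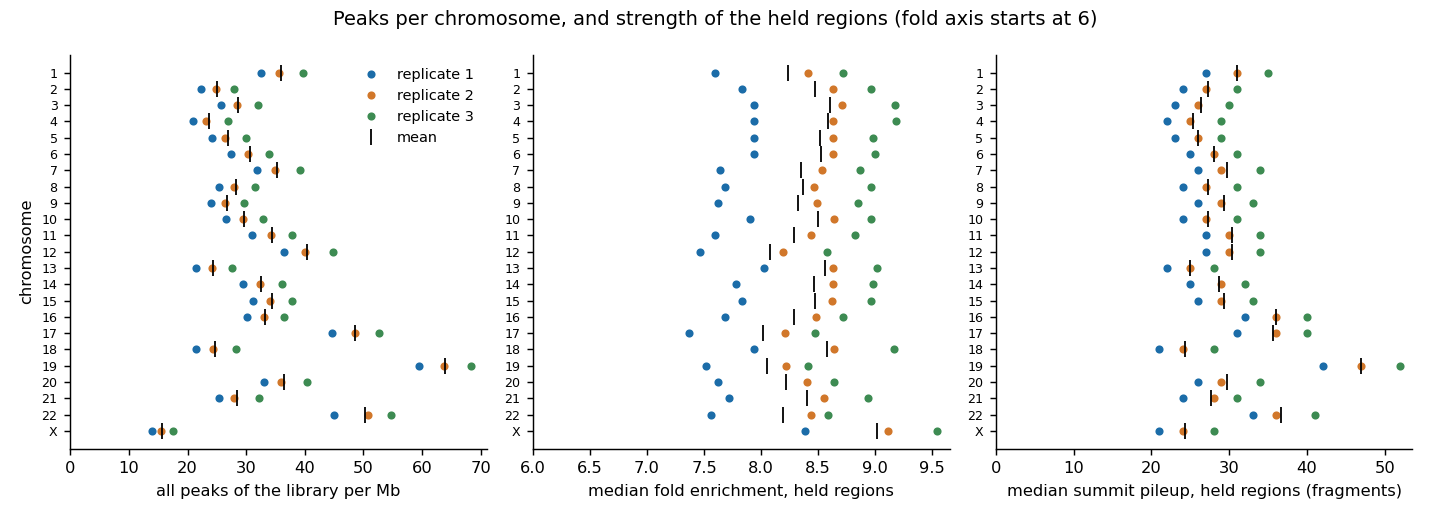
All peaks per Mb (left), and median fold enrichment (middle, axis starting at 6) and median summit pileup (right) of held regions, for each chromosome. Points are the 3 DMSO libraries and the black tick is their mean. Chromosome 19 has the most peaks per Mb and the highest pileup, and X has the fewest peaks per Mb and the highest fold in each library.

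Chromosome X differed from the autosomes in opposite directions on the 2 measures. Its 1779 held regions had a median fold 0.61 ± 0.05 higher than the 68516 autosomal ones (SD, n = 3, higher in 3 of 3 libraries) and a median summit pileup lower by exactly 5 fragments in each library. Its local background was 1.47, 1.61 and 1.83 fragments against 2.29, 2.33 and 2.65 on the autosomes. Restricted to regions without a neighbour under 5 kb, the difference in fold was 0.42 ± 0.14 and that in pileup -2.67 ± 0.58. The number of copies of X and of the autosomes in these cells was not analysed here, and its part in the difference was not tested. Chromosome X also had the lowest share of its regions among the strongest 10% by −log10 p, 5.62%, against 17.6% on chromosome 19.

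At a finer scale held regions were also spread unevenly. In 2962 windows of 1 Mb between the first and last held region of each chromosome, the median was 20 held regions and the maximum 126. The densest 10% of windows contained 25.2% of held regions, and the sparser 50% of windows 24.2%, while 92 windows had none. The densest window spanned 49 to 50 Mb of chromosome 19, with 139, 145 and 149 peaks in replicates 1, 2 and 3, and 6 of the 10 densest were on that chromosome. Others were on chromosome 17 from 7 to 8 Mb (95 regions), on chromosome 11 from 65 to 66 Mb (94) and on chromosome 6 from 27 to 28 Mb (91). The median folds of the 10 lay between 5.63 and 7.84, below that of all held regions, and their median pileups between 38.3 and 65.3 fragments, above it.

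Held regions were denser towards the outermost held regions of each chromosome. Within 1 Mb of the first or last held region there were 41.8 per Mb, from 1 to 2 Mb 41.0, from 5 to 10 Mb 27.5 and beyond 20 Mb 21.9. Median fold in the outermost 1 Mb was 6.89, 7.59 and 7.70 in replicates 1, 2 and 3 and beyond 20 Mb it was 7.90, 8.63 and 8.97. Summit pileup went the other way, with 35, 39 and 44.5 fragments against 25, 28 and 32. The share of regions with a neighbour under 5 kb was 45.6% in the outermost 1 Mb and 31.5% beyond 20 Mb.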

How the data were processed

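A commercial ATAC-seq kit was used for the libraries, per the labels' protocols. The submitters' processing notes name Bowtie2, hg19 and MACS2, whose versions and settings those notes do not give. Each deposited list comes from 1 library. It gives, per peak, the authors' fold enrichment (a ratio) and −log10 p and −log10 q at the summit. The deposited score repeats −log10 q and was not used. Each is the authors' own value, set within 1 library, and folds of different libraries are set side by side without rescaling.

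Intervals of the 3 DMSO lists were merged at 1 bp or more of overlap. A region took the highest fold and the highest −log10 p of its peaks in each library. Its pileup, background and summit came from the peak of highest −log10 p. In the 7127 regions with several peaks in a library, these values can come from different peaks. Values per region are means over 3 libraries. Pileup and background were solved from fold and p by the Poisson formula of MACS2 and are counted in the units it stacked, reads or read pairs. Merging and solving were tested on simulated data. Python 3.11.15, numpy 2.4.6, pandas 2.3.3 and scipy 1.17.1 were used. With 1 group no test was made.

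Named regions are the first 10 by the worst rank over libraries of −log10 p and of fold, the 10 widest, the 5 groups with most regions, and the 5 most and 5 least variable of the strongest 10%. Members and lists were chosen with earlier results of these data known. The marker check and nearest genes were not analysed here, since no annotation of the build was used. Length per chromosome runs from its first to its last held region. Alternatives were a −log10 q of at least 5, equal-length lists, 50% of a region covered, merging up to 150 bp, windows of 100 bp either side of a summit, other summaries and rankings, other chaining distances, and leaving out each library.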

Additional observations from a re-analysis of the deposited data

How the results depend on the processing

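Of 98 values recomputed under another setting, 72 moved by less than 1 SD between libraries, or for counts stayed within 1.5 times, and 0 changed sign. For the held share the SD was that of the share of each list's peaks in held regions (9.61). For width it was that of single peaks (4.04 bp), and for regions per Mb that of all peaks. The held share was 65.8% with −log10 q of at least 5, 69.5% with equal-length lists and 67.5% when merged up to 150 bp apart. It was 60.4% with 50% of a region covered and 57.2% for summit windows. Median width was 512 bp with −log10 q of at least 5, 515 bp with equal-length lists, 523 bp when intervals up to 150 bp apart were merged and 250 bp for summit windows, which covered 17.4 Mb. The median gap was 20.3, 20.5, 20.5 and 20.3 kb with the stricter q, equal-length lists, 50% of a region covered and summit windows. The share within 10 kb of the next region was 31.3%, 31.0%, 30.9% and 31.2% with the stricter q, equal-length lists, merging up to 150 bp and summit windows. Leaving out 1 library gave a held share of 72.3 to 76.2%, a width of 434 to 444 bp, a gap of 16.8 to 18.3 kb, 34.3 to 36.2% within 10 kb, a rank correlation of fold of 0.879 to 0.897, 54.0 to 58.1 regions per Mb on chromosome 19 and 12.1 to 13.7 on X, since a region then needs 2 libraries.

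The fold of X minus autosomes was 0.73 with equal-length lists, 0.74 with 50% covered, 0.42 without neighbours under 5 kb, and 0.46 to 0.62 leaving out a library. The pileup difference was -4.67 with the stricter q, -4.33 with equal-length lists, -4.5 with 50% covered, -4 when merged up to 150 bp, -2.67 without neighbours under 5 kb, and -5 to -4 leaving out a library. The fold difference by neighbour distance was -1.95 at a distance of 10 kb. Of the 10 strongest regions 0 remained when ranked by fold, 1 by pileup and 6 to 8 leaving out a library, and of the 5 largest groups 1 remained at each other chaining distance. The comparisons by neighbour distance and of X, the ranking by pileup, and the other settings of the strongest regions were chosen after seeing the data. The cause of these shifts was not tested. No paired analysis was possible because only 1 group was described.

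The smallest pileup of any peak was 7 fragments, and the depth in reads is unknown. A region held by fewer than 3 libraries is not shown to be closed in the others.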
